A study of Mus musculus with 288 samples.

Results

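The subunits of the hypoxia-inducible factors (HIF) were followed as 5 genes among the 35904 genes measured. They were chosen by name and not by a cutoff on measured values, though earlier results of these data were known. They were the α subunit genes Hif1a, Epas1 (which encodes HIF-2α) and Hif3a, and the β subunit genes Arnt (HIF-1β) and Arnt2. RNA came from male C57BL/6J wild-type mice aged 8 weeks, kept either in room air (normoxia) or in intermittent hypoxia (IH), in which oxygen cycled from 21% down to 8% during the inactive light phase for 7 days. All mice of both groups then spent 2 days in constant darkness and normoxia, and lung, liver, kidney, muscle, heart and cerebellum were collected on the second of these days at 8 circadian times 3 hours apart, from 1:30 to 22:30. Each tissue therefore gave 24 normoxia and 24 IH libraries, 3 per time point and treatment. The mice carried no transgene or deletion. Tissues were taken after the return to room air, so the values describe transcript levels after IH and not during a hypoxic cycle, and the labels do not say which libraries of different tissues came from the same mouse.

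HIF are dimers of an oxygen-regulated α subunit and a constitutively present β subunit, both of the basic helix-loop-helix PAS family. In oxygen, prolyl hydroxylases mark the α subunit for recognition by the von Hippel-Lindau protein and degradation, so that HIF activity is controlled mainly at the protein level and transcript levels of an α subunit are not a measure of its activity. HIF-1α is found in most cell types, HIF-2α is known for high expression in endothelium and lung, HIF-3α has splice forms that can act as inhibitors of the other α subunits, and ARNT and ARNT2 also serve as partners of other proteins of the family such as the aryl hydrocarbon receptor.

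The deposited values were TPM, a relative transcript abundance that corrects for transcript length and scales each library to nearly the same sum, so that levels can be compared between genes. Sums of the libraries ranged from 989211 to 999188 TPM, and no pair of libraries was identical (0 duplicates). Because TPM hold no counts, sequencing depth and the error it causes are not known. Levels below are TPM as deposited, with SD over libraries. Differences between treatments were tested on log2(TPM + 0.5) after median-of-ratios scaling of the libraries, with limma fitted to all genes that averaged at least 1 TPM in a tissue, with terms for treatment and time point, and with p-values adjusted by the Benjamini-Hochberg method over all genes tested in that tissue. A gene passed at an adjusted p of 0.05. No defining marker of a labelled tissue was listed at 0 throughout that tissue. In the lung, the 5 lung markers summed to between 133390 and 261960 TPM in normoxia and between 33464 and 201320 TPM after IH, and all 5 were lower after IH in the same fit, with a median log2 change of -0.79, while with a term for the number of genes detected per library 3 were higher and 0 lower (median 0.26). Of markers of other sources in the IH lungs, 3 of 5 heart markers were higher (median 0.48; 5 of 5 on TPM as deposited), as were 2 of 4 muscle markers (median 0.80), and 3 of 3 red cell markers were lower (median -0.76). Their part in the lung changes below was not tested. The number of genes above 0 TPM was higher after IH in the lung (median 24788.5 against 22690.5) and lower in the heart, where all 24 IH libraries lay below all normoxia libraries (median 21492 against 24768.5).

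Hif1a lies on chromosome 12 (73901375 to 73947530, plus strand), Epas1 on chromosome 17 (86753700 to 86833410, plus strand), Hif3a on chromosome 7 (17031507 to 17062427, minus strand), Arnt on chromosome 3 (95434388 to 95497240, plus strand) and Arnt2 on chromosome 7 (84246278 to 84410176, minus strand), all in the mouse build GRCm38 with the GENCODE annotation. On the same strand, Hif1a is overlapped by the protein-coding gene Gm49321, Epas1 by AC096777.1, Arnt by Gm42672 (described below) and Arnt2 by the small nuclear RNA gene Gm25790. The part of these genes in the subunit values was not tested. The RefSeq promoter table of build GRCm38.p6, which holds 250 bases before to 50 after a gene's start, matched 4 of the 5 genes and did not match Epas1. Promoters are shown for Hif3a and Arnt2, the subunits whose low lung levels differ most between treatments below, and for Hif1a, with the core of the hypoxia response element on either strand in capitals (ACGTG or GCGTG, written CACGT or CACGC where it lies on the other strand).
Hif3a (chr7:17062378-17062677, minus strand): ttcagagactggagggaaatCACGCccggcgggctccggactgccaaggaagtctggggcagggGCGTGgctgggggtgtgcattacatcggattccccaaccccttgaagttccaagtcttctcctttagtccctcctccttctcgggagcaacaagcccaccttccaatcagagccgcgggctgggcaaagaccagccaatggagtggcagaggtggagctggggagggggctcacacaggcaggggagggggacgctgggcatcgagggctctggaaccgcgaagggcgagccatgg
Arnt2 (chr7:84409989-84410288, minus strand): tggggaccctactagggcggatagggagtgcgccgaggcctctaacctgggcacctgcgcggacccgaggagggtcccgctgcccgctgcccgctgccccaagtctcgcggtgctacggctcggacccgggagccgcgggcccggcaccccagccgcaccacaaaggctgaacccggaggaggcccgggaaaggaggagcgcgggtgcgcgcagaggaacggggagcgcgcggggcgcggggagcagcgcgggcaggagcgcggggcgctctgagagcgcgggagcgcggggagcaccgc
Hif1a (chr12:73907617-73907916, plus strand): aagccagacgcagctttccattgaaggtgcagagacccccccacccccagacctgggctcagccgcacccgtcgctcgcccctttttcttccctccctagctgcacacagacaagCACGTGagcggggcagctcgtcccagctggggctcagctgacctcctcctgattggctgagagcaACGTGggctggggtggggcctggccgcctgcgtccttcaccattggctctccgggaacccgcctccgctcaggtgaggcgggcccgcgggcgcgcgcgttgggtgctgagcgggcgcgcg
The Hif3a window held 2 matches of GCGTG and the Arnt2 window held none of either core. The Hif1a window held 3 matches of ACGTG, of which a pair formed the palindrome CACGTG (an E-box, which contains ACGTG on both strands), and the Arnt window (chr3:95434140-95434439) held 1 match of GCGTG. Among all 32851 promoters of the same length, 19.6% held ACGTG, 32.4% held GCGTG, 43.8% held either and 7.15% held CACGTG. The Hif1a window (73907617 to 73907916) lies inside the gene as given above and not at its start (73901375). Its matches therefore belong to a start within the annotated gene. These matches describe letters in a window and were not tested for binding.

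In normoxia the 5 genes differed widely in level and in their order across tissues. Epas1 in the lung stood apart from every other value, at 1002 ± 226 TPM (SD, n = 24). Its level was 68.2 ± 15.6 TPM in muscle, 54.8 ± 13.9 in heart, 26.7 ± 10.8 in liver, 23.0 ± 5.36 in kidney and 18.6 ± 4.45 in cerebellum. The lung mean was thus 14.7 times that of muscle and 54.0 times that of cerebellum. Between neighbours in this order, liver and kidney did not pass the test on TPM as deposited (adjusted p = 0.198), and muscle and heart did not pass after scaling (adjusted p = 0.988).

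**Figure D1:**
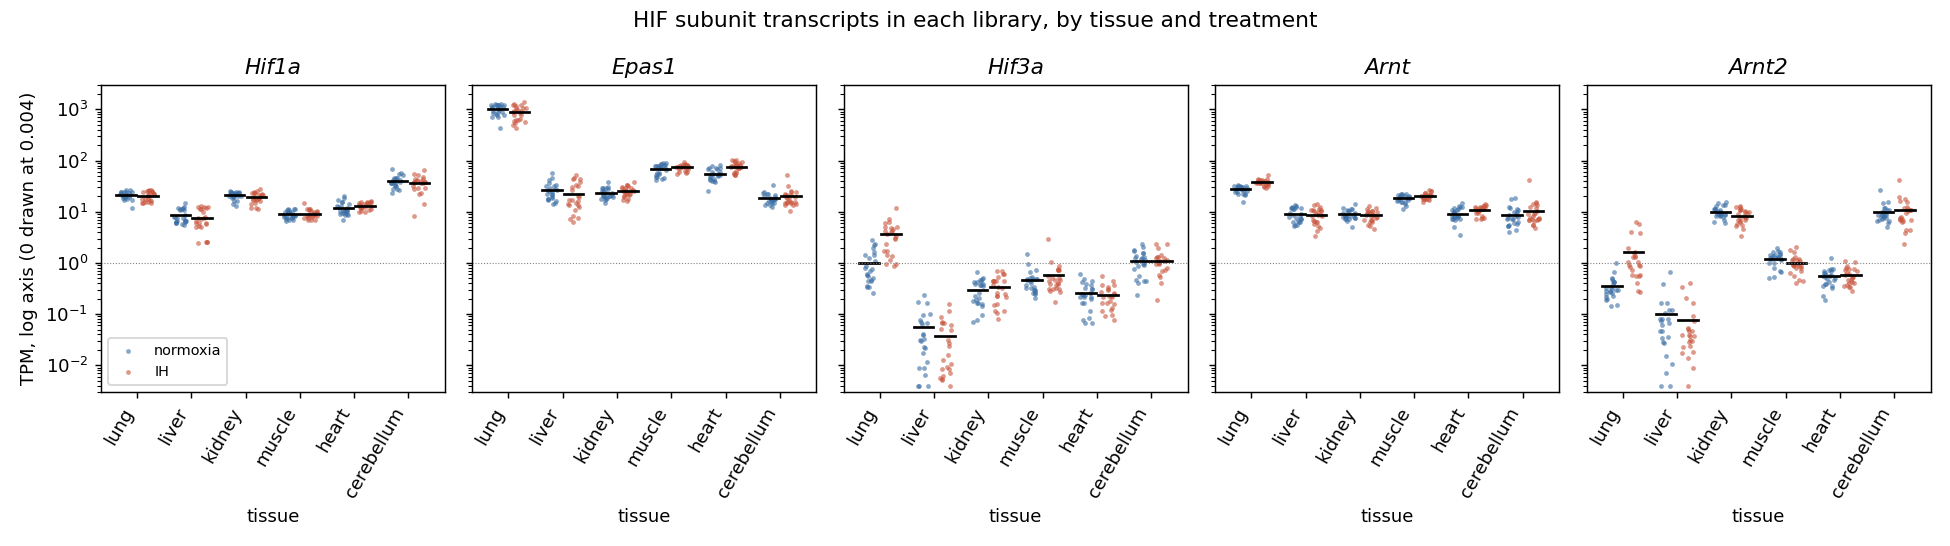
TPM of Hif1a, Epas1, Hif3a, Arnt and Arnt2 in 6 tissues on a log axis, with each point 1 library in normoxia or after IH, bars at the mean of 24 libraries and values of 0 drawn at the bottom of the axis. Epas1 in the lung, at a mean of 1002 TPM in normoxia, lies above every other point. The Hif3a means lie near or below 1 TPM in normoxia in every tissue, with single lung libraries up to 2.81 TPM.

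Hif1a was highest in the cerebellum at 39.9 ± 10.3 TPM, followed by lung at 21.1 ± 3.34, kidney at 20.9 ± 3.37, heart at 11.9 ± 3.42, muscle at 8.93 ± 1.51 and liver at 8.48 ± 2.66 TPM (SD, n = 24 each). The highest and lowest means were 4.71-fold apart. On TPM as deposited, lung and kidney did not pass the test (adjusted p = 0.874), nor did muscle and liver (adjusted p = 0.245). After scaling, both pairs passed, and lung lay below kidney by a log2 difference of -0.67, so the place of the lung in this order depends on the scaling.

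The remaining α subunit, Hif3a, was the least abundant of the 3 α subunits in every tissue. Its mean was 1.10 ± 0.542 TPM in cerebellum, 1.01 ± 0.724 in lung, 0.472 ± 0.279 in muscle, 0.301 ± 0.160 in kidney, 0.259 ± 0.141 in heart and 0.0548 ± 0.0603 in liver (SD, n = 24 each). In the liver 2 normoxia libraries and 1 IH library were listed at 0. The gene was below the mean of 1 TPM over all normoxia libraries, so its order over tissues is given without a test.

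Of the β subunits, Arnt had the narrower range over tissues. It was highest in the lung at 27.3 ± 4.34 TPM and in muscle at 18.2 ± 3.09 TPM, although after scaling lung lay below muscle by a log2 difference of -0.29, and the other 4 tissues lay between 8.71 ± 3.74 TPM in cerebellum and 9.22 ± 2.65 TPM in heart. On TPM as deposited, no pair among those 4 tissues passed the test (adjusted p from 0.288 for heart and cerebellum to 0.929 for liver and kidney). Arnt2 was highest in kidney at 10.05 ± 2.54 TPM and cerebellum at 9.82 ± 4.41 TPM, which did not pass on TPM as deposited (adjusted p = 0.440). It was lower in muscle at 1.21 ± 0.371 TPM, heart at 0.545 ± 0.219, lung at 0.348 ± 0.185 and liver at 0.101 ± 0.145 TPM (SD, n = 24 each). Over the 4 genes with enough signal and 15 pairs of tissues, 57 of 60 comparisons passed after scaling and 50 of 60 on TPM as deposited, beside 85.7% of all comparisons over all genes after scaling.

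Within single libraries the balance of the subunits differed between tissues, and such ratios do not depend on the scaling of a library. The median Epas1 to Hif1a ratio in normoxia was 48.04 in lung, 7.52 in muscle, 4.73 in heart, 3.15 in liver, 1.07 in kidney and 0.441 in cerebellum. Epas1 made up a median of 97.8% of α subunit transcripts in the lung and 29.9% in the cerebellum, where Hif1a was the major α subunit. Arnt2 made up a median of 53.2% of β subunit transcripts in kidney and 53.4% in cerebellum, 6.00% in muscle and 1.03% in lung. Kidney and cerebellum were therefore the tissues in which both β subunits had similar transcript levels.

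The question of whether prior IH changed the levels of these subunits was asked in each tissue. In the lung all 4 subunits that reached a mean of 1 TPM passed the test, where 71.4% of all genes tested passed, so the share of members is to be read against a tissue in which most genes moved. Hif3a was the only one of the 4 with a change beyond 1.5-fold, which 13.52% of genes tested in the lung reached. A total of 23 combinations of gene and tissue could be tested of 30, and 7 passed.

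Hif3a in the lung ranged from 0.255 to 2.81 TPM in normoxia (median 0.725) and from 0.860 to 11.9 TPM after IH (median 3.46; n = 24 each). All 24 IH libraries lay above the normoxia median and 15 of them above every normoxia library, and the mean after IH was higher at all 8 time points. On TPM as deposited the means were 1.01 ± 0.724 and 3.69 ± 2.55 TPM, a ratio of 3.67. In the fit, Hif3a rose by 1.16 on the log2(scaled TPM + 0.5) scale (SE 0.154, 95% interval 0.85 to 1.47, adjusted p = 1.89e-08), a scale that understates changes of low genes. The rise was 1.38 without scaling (adjusted p = 1.45e-09), between 1.03 and 1.22 when 1 replicate number was left out, and 0.73 with a term for the number of genes detected per library (adjusted p = 0.00893).

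Arnt2 in the lung moved in the same direction from a lower level. It ranged from 0.144 to 0.997 TPM in normoxia (median 0.295) and from 0.272 to 6.34 TPM after IH (median 0.961; n = 24 each). Of the 24 IH libraries, 22 lay above the normoxia median and 12 above every normoxia library, and the groups overlapped in the rest. Its mean over both groups was below 1 TPM, so it entered no main test. With no filter it rose by 0.87 on the log2 scale (SE 0.170, 95% interval 0.53 to 1.21, adjusted p = 3.37e-05, beside 55.3% of all genes passing without the filter). This value moved between 0.18 (adjusted p = 0.63), with a term for the number of genes detected per library, and 1.04, with TPM as deposited.

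The main β subunit, Arnt, ranged in the lung from 15.7 to 32.8 TPM in normoxia (median 28.2) and from 29.6 to 51.8 TPM after IH (median 37.5; n = 24 each). On TPM as deposited the groups were nearly separate, with 20 of 24 IH libraries above every normoxia library. On that scale 83.3% of passing lung genes were higher after IH. After scaling the groups overlapped, from 21.7 to 35.8 in normoxia and from 26.7 to 40.7 after IH. By replicate number the scaled log2 differences were -0.0017, 0.23 and 0.30. The fitted rise depended strongly on the scaling, at 0.18 on the log2 scale after scaling (SE 0.0406, adjusted p = 0.000205) and 0.48 on TPM as deposited (adjusted p = 2.41e-08). Without replicate 3 it was 0.11 and did not pass (adjusted p = 0.0743). A processed pseudogene, Gm42672 (chromosome 3, 95461191 to 95461542, plus strand), lies in an intron of Arnt on the same strand and overlaps 0 of its exons. Its own level in the lung was 0.996 ± 0.688 TPM in normoxia and after IH it was 7.26 ± 3.80 TPM (SD, n = 24), and its part in the Arnt values was not tested.

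**Figure D2:**
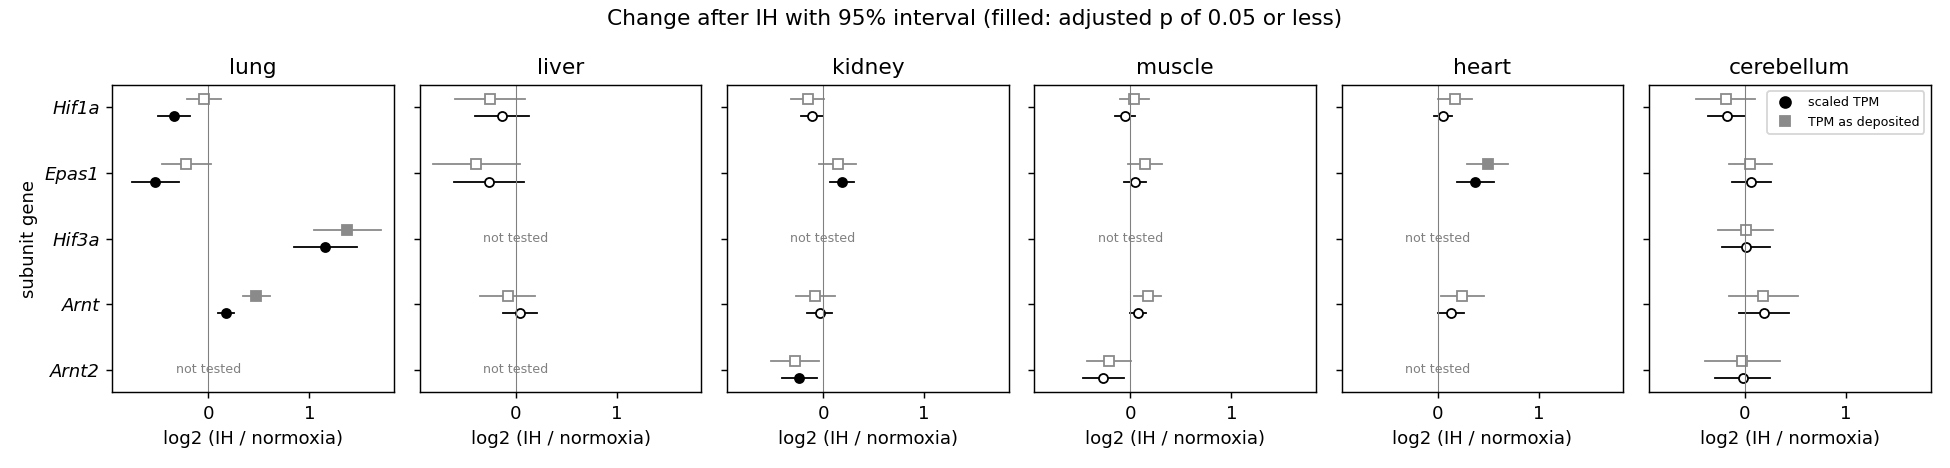
Log2 difference of IH minus normoxia for each subunit in each of 6 tissues, with 95% intervals from limma. Black circles are scaled TPM, grey squares are TPM as deposited, and filled symbols passed an adjusted p of 0.05. Lung Hif3a, at 1.16 after scaling, is the farthest from 0, and lung Hif1a and Epas1 lie below 0 after scaling with intervals that reach 0 without it.

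The 2 abundant α subunits had lower fitted levels in the lung after IH, and for both the call rested on choices of processing. Epas1 ranged from 438 to 1289 TPM in normoxia (median 1066) and from 426 to 1375 TPM after IH (median 902), with wide overlap. Its fitted change was -0.53 on the log2 scale (SE 0.117, 95% interval -0.76 to -0.29, adjusted p = 0.000126). It was -0.22 without scaling (adjusted p = 0.102), -0.29 without replicate 1 (adjusted p = 0.0783), and 0.34 with a term for the number of genes detected (adjusted p = 0.00128), which turns the direction. Hif1a ranged from 11.7 to 26.5 TPM in normoxia (median 21.3) and from 14.5 to 26.4 TPM after IH (median 21.1), with nearly complete overlap. Its fitted change was -0.34 (SE 0.0781, 95% interval -0.50 to -0.18, adjusted p = 0.000179), but -0.045 without scaling (adjusted p = 0.646), -0.21 without replicate 1 (adjusted p = 0.0626) and 0.23 with the term for genes detected (adjusted p = 0.00146). The median of all genes tested in the lung was -0.076 after scaling and 0.206 on TPM as deposited, and the share of passing genes that were higher after IH was 41.0% and 83.3%.

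The direction of the Epas1 difference in the lung was not shared by the 3 replicate numbers in the labels. Among libraries numbered 1, Epas1 was 1205 ± 72.5 TPM in normoxia and after IH it was 709 ± 182 TPM (SD, n = 8 each). Among libraries numbered 2 it was 949 ± 281 and 779 ± 237 TPM, and among libraries numbered 3 it was 852 ± 85.4 and 1143 ± 167 TPM. On the scaled log2 scale the differences were -1.01, -0.66 and 0.09. On the deposited scale, libraries numbered 1 were thus lower after IH with no overlap, and most of those numbered 3 were higher. Hif1a showed -0.61, -0.42 and 0.00, whereas Hif3a was higher after IH within every number, at 1.04, 1.03 and 1.40. What the replicate numbers stand for is not stated in the labels, so their part in these differences was not tested.

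**Figure D3:**
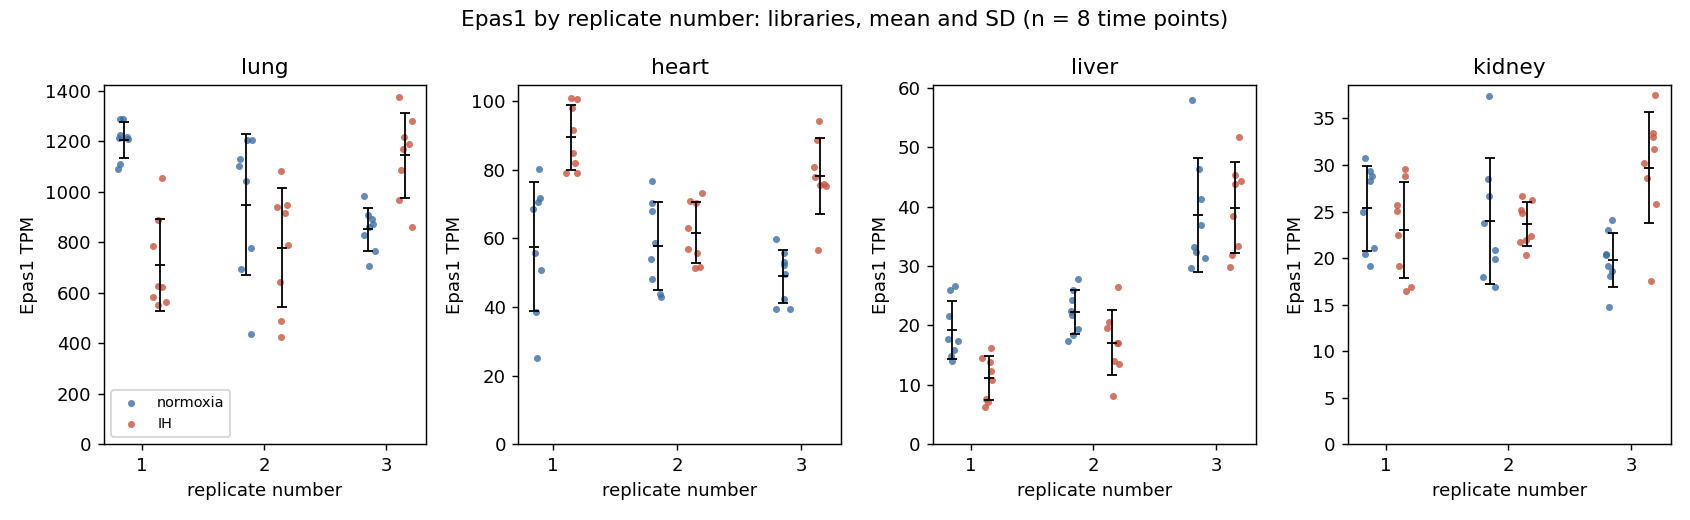
Epas1 TPM in lung, heart, liver and kidney by replicate number in the labels and by treatment, with points for libraries and mean and SD of n = 8. In the lung the IH mean lies below normoxia for number 1 (709 against 1205 TPM) and above it for number 3 (1143 against 852 TPM).

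Endothelial cells are known for high Epas1, and 7 endothelial markers were therefore followed beside it. In the lung, 6 of 7 were lower after IH and none was higher, with a median log2 change of -0.53, and on TPM as deposited 5 were lower and 1 higher with a median of -0.23. Their summed level ranged from 1095 to 2055 TPM in normoxia (median 1700) and from 1434 to 1921 TPM after IH (median 1644). With the term for genes detected 1 was higher and 3 were lower (median 0.079), whereas Epas1 was higher there. The part of cell composition was not tested. In bulk tissue, fewer cells of a type and less RNA per cell cannot be told apart.

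In the heart Epas1 was the only one of the 3 subunits tested that passed, beside 45.9% of all genes tested and 2.95% with a 1.5-fold change. It ranged from 25.1 to 80.2 TPM in normoxia (median 53.5) and from 51.5 to 101.0 TPM after IH (median 76.9; n = 24 each). Of the IH libraries, 22 of 24 lay above the normoxia median and 9 above every normoxia library, and the mean was higher after IH at all 8 time points. Epas1 rose by 0.37 on the log2 scale (SE 0.0908, 95% interval 0.19 to 0.56, adjusted p = 0.000979) and by 0.50 on TPM as deposited (adjusted p = 0.000177). The deposited means by replicate number were 57.6 and 89.5, 57.8 and 61.7, and 49.0 and 78.1 TPM in normoxia and IH, higher after IH for each number. With a term for genes detected, a number that separated all IH from all normoxia hearts, the change was -0.21 (adjusted p = 0.361).

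Of the 7 endothelial markers, 5 were higher and 1 lower in the heart, with a median of 0.38, and their sum ranged from 232 to 666 TPM in normoxia (median 405) and from 373 to 587 TPM after IH (median 499). Smooth muscle and fibroblast markers were higher in 5 of 5 (median 0.46). With the term for genes detected 0 of either list passed (medians -0.12 and -0.028). Their part in the Epas1 difference was not tested. Hif1a and Arnt did not pass in the heart. Hif1a had a log2 difference of 0.05 (adjusted p = 0.312) and Arnt of 0.13 (95% interval -0.00 to 0.26, adjusted p = 0.0989; 0.22 without replicate 2, adjusted p = 0.0435). In both genes 20 of 24 IH libraries lay above the normoxia median on TPM as deposited. On that scale 85.7% of passing heart genes were higher after IH, and the median of all heart genes tested was 0.146.

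In the kidney 2 of 4 subunits passed, beside 22.51% of all genes tested, in opposite directions and with small changes, and 0.791% of genes passed with a 1.5-fold change. Epas1 ranged from 14.8 to 37.4 TPM in normoxia (median 21.0) and from 16.4 to 37.5 TPM after IH (median 25.4), and it rose by 0.19 on the log2 scale (SE 0.0598, 95% interval 0.06 to 0.31, adjusted p = 0.0213). Arnt2, one of the 2 similarly abundant β subunits of this tissue, ranged from 6.10 to 15.3 TPM in normoxia (median 9.13) and from 3.30 to 12.7 TPM after IH (median 8.09), and it fell by 0.24 (SE 0.0862, 95% interval -0.41 to -0.06, adjusted p = 0.0418). Both pairs of groups overlapped widely. Neither passed on TPM as deposited, at 0.14 for Epas1 (adjusted p = 0.328) and -0.28 for Arnt2 (adjusted p = 0.118), and with 1 replicate number left out at most 1 of the 4 subunits passed. Epas1 was 0.078 without replicate 3 (adjusted p = 0.438) and Arnt2 was -0.050 without replicate 2 (adjusted p = 0.679). By replicate number the scaled Arnt2 differences were -0.19, -0.61 and 0.10. Hif1a (-0.11, adjusted p = 0.126) and Arnt (-0.04, adjusted p = 0.717) did not pass.

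No subunit passed in liver (0 of 3 tested, beside 25.7% of all genes), muscle (0 of 4, beside 12.0%) or cerebellum (0 of 5, beside 16.7%). Genes passing with a 1.5-fold change made up 3.71%, 0.367% and 2.85% of those tested. At an unadjusted p under 0.05 in limma there were 0 in liver, 1 in muscle (Arnt2) and 1 in cerebellum (Hif1a), beside 4331 of 11334 genes in liver, 3264 of 12824 in muscle and 4794 of 14892 in cerebellum. Without the cerebellar library of lowest correlation, 3865 of 14861 genes passed the adjusted p in place of 2481 of 14892, and still 0 of 5 subunits. In the liver, Epas1 ranged from 14.0 to 57.9 TPM in normoxia (median 25.2) and from 6.31 to 51.7 TPM after IH (median 17.1), with a log2 difference of -0.26 (95% interval -0.61 to 0.09, adjusted p = 0.263). The spread within each group was large, and 8 of 24 IH libraries lay below every normoxia library. Without replicate 3, whose libraries had the highest Epas1 in both groups (38.7 and 39.9 TPM), the difference was -0.47 (adjusted p = 0.0145), and with the term for genes detected it was -0.37 (adjusted p = 0.0494). Liver Hif1a (-0.14, 95% interval -0.41 to 0.13) and Arnt (0.04, 95% interval -0.12 to 0.21) did not pass.

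Muscle Arnt2 ranged from 0.498 to 1.96 TPM in normoxia (median 1.26) and from 0.404 to 2.04 TPM after IH (median 0.923), and 4 of 24 IH libraries lay above the normoxia median. Its log2 difference was -0.27 (95% interval -0.47 to -0.07, adjusted p = 0.0709). The other 3 subunits tested in muscle had -0.05 (Hif1a), 0.05 (Epas1) and 0.08 (Arnt). On TPM as deposited, 17 of 24 Arnt values after IH lay above the normoxia median of 18.5 TPM and 5 above every normoxia library. On that scale 95.8% of passing muscle genes were higher after IH. In the cerebellum Hif1a had a difference of -0.18 (95% interval -0.36 to -0.00, adjusted p = 0.145), Arnt of 0.19 (adjusted p = 0.293), Epas1 of 0.06 (adjusted p = 0.692), Hif3a of 0.01 (adjusted p = 0.966) and Arnt2 of -0.02 (adjusted p = 0.926). The cerebellum was the only tissue in which all 5 subunits could be tested.

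The 7 combinations below a mean of 1 TPM were Hif3a in liver, kidney, muscle and heart and Arnt2 in lung, liver and heart. Outside the lung these genes showed no separation of the groups. Hif3a in kidney ranged from 0.0708 to 0.678 TPM in normoxia (median 0.308) and from 0.0820 to 0.701 TPM after IH (median 0.334), and in heart from 0.0676 to 0.605 TPM (median 0.238) and from 0.0769 to 0.549 TPM (median 0.225). In muscle it ranged from 0.203 to 1.498 TPM (median 0.421) and from 0.169 to 2.99 TPM (median 0.450). Arnt2 in heart ranged from 0.192 to 1.25 TPM (median 0.544) and from 0.288 to 1.08 TPM (median 0.543). In the liver Arnt2 was listed at up to 0.671 TPM in normoxia and 0.414 TPM after IH, with 1 normoxia library at 0.

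A pair of cerebellar libraries at 1:30 after IH held the extremes of several subunits. Replicate 1 had the highest Arnt (42.6 TPM), Arnt2 (40.9 TPM) and Epas1 (53.2 TPM) of all 48 cerebellar libraries, while replicate 3 had the lowest Hif1a (8.24 TPM) and Arnt2 (2.35 TPM). Replicate 3 also held heart markers at 33.7% of the heart level (median over the markers) and had the lowest correlation to the other cerebellar libraries (median r = 0.767). Leaving out the 6 cerebellar libraries with heart markers at 10% or more left 0 of 5 subunits passing. The liver IH library at 13:30 numbered 2 held heart markers at 33.8%, and leaving it out as the liver library of lowest correlation left 0 of 3 subunits passing. Over all liver libraries, 3 of 3 kidney markers tested (median log2 2.13) and 5 of 5 heart markers (median 1.36) were higher after IH. Summed kidney markers in the liver had medians of 3.58 TPM in normoxia and 82.4 TPM after IH, beside 49885 TPM in normoxia kidney. Their part in the liver values was not tested.

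Ratios within a library, which are free of scaling, were compared between treatments as a description. In the lung the median Arnt to Hif1a ratio was 1.30 in normoxia and 1.77 (1.40 to 3.44) after IH, and 19 of 24 IH libraries lay above every normoxia library. The ratio of summed α to summed β transcripts in the lung was 36.6 (27.7 to 41.9) in normoxia and 24.3 (7.78 to 32.3) after IH, with 14 of 24 below every normoxia library. Arnt was therefore higher relative to Hif1a, and summed β transcripts higher relative to summed α transcripts, in most IH lungs. Epas1 made up a median of 97.8% of α transcripts in normoxia and 97.4% after IH, so the summed ratio mainly sets Epas1 against Arnt.

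The Epas1 to Hif1a ratio in the lung was 48.04 (37.3 to 58.9) and 42.5 (28.3 to 53.8), with 8 of 24 IH libraries below every normoxia library. In heart the same ratio had a median of 4.73 in normoxia and 5.75 after IH, and in kidney of 1.07 and 1.36, so that its medians lay higher after IH in these tissues and lower in the lung. Arnt2 as a share of β transcripts in the lung had a median of 1.03% in normoxia and 2.60% after IH, with a maximum of 13.8%, and Hif3a as a share of α transcripts of 0.0722% and 0.296%. Even after IH, Hif3a and Arnt2 thus made up a small part of the subunit transcripts in the lung.

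Whether the response to IH differed between tissues was tested by an interaction of treatment and tissue over all libraries of the 6 tissues in limma, with libraries of different tissues taken as independent. Of the 4 subunits above the filter, 3 passed, beside 84.4% of all genes tested, namely Hif1a (adjusted p = 0.00566), Epas1 (adjusted p = 5.07e-08) and Arnt2 (adjusted p = 1.21e-06), while Arnt did not (adjusted p = 0.373). For Epas1 the fitted changes ran from -0.53 in lung to 0.37 in heart, but with the term for genes detected these 2 tissues had 0.34 and -0.21, and the interaction was not fitted with that term. The Hif1a call did not hold on TPM as deposited (adjusted p = 0.106), nor without replicate 1 (0.187) or 2 (0.138), and Arnt passed on TPM as deposited (0.00987) and without replicate 3 (0.0168). Hif3a was below the filter over all tissues, so the difference of its lung rise from other tissues was not tested in this way.

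Rhythm over the 24 hours was tested with a cosine fit in limma in each tissue, for genes that reached 1 TPM in at least 1 library, which gave 26 combinations of subunit and tissue. In normoxia 1 of 26 passed, lung Hif3a. After IH 1 of 26 passed, lung Arnt2. Its normoxia maximum was 0.997 TPM, so it entered this test through the IH libraries alone, and these calls do not compare its treatments. Among all genes tested, the shares passing in normoxia and after IH were 2.93% and 6.75% in lung, 4.73% and 6.03% in liver, 10.2% and 9.23% in kidney, 4.83% and 10.4% in muscle, 1.29% and 1.86% in heart, and 0.0374% and 0.0187% in cerebellum. Both subunit calls fell in the lung, at 1 of 5 tested there in each treatment, beside its 2.93% and 6.75% of all genes. Whether 1 of 5 differs from these shares was not tested.

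Lung Hif3a in normoxia had mean levels of 0.445, 0.550, 1.36, 2.37, 1.20, 1.08, 0.438 and 0.605 TPM from 1:30 to 22:30 (n = 3 each). The libraries of 10:30 were at 1.95, 2.35 and 2.81 TPM, and 1 library of 7:30 reached 2.20 TPM. The fit placed the peak at 11.3 h ± 0.951 (SE) with an amplitude of 0.68 ± 0.170 on the log2 scale and a 2.58-fold range from peak to trough (adjusted p = 0.0383). After IH the means were 2.79, 2.59, 5.27, 7.77, 2.40, 3.17, 3.40 and 2.16 TPM, again highest at 10:30, with a fitted peak at 10.6 h, an amplitude of 0.57 and an adjusted p of 0.0749. Hif3a was therefore higher at every time point after IH while the time of its highest mean was the same. The rhythm call in normoxia was lost on TPM as deposited (adjusted p = 0.111), with a pseudocount of 1 (0.0762), on linear TPM (1), with time point as a factor (0.400) and with any 1 of the 3 replicate numbers left out (0.104 to 0.258).

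Lung Arnt2 after IH had means of 3.50, 1.94, 2.96, 0.959, 0.919, 0.748, 0.733 and 1.08 TPM over the same times, and in normoxia its means stayed between 0.203 and 0.476 TPM. The libraries within a time point were far apart, at 0.892, 3.87 and 5.75 TPM at 1:30 and at 0.557, 1.97 and 6.34 TPM at 7:30. The fitted peak after IH was at 4.40 h ± 0.974 (SE) with an amplitude of 0.61 ± 0.155 (adjusted p = 0.0269). In normoxia, where no library reached 1 TPM, the gene did not pass (adjusted p = 1). The call after IH was lost without replicate 1 (adjusted p = 0.127) or 2 (0.0901). It was also lost with time point as a factor (0.436) and without the libraries that stand apart (0.0525). The difference in rhythm between treatments did not pass for any subunit in limma (0 of 26), nor for any gene in the 6 tissues. The lowest unadjusted p of a subunit was 0.0592, for lung Arnt2, and lung Hif3a had 0.813. At an unadjusted p under 0.05 there were 449 genes in lung, 116 in liver, 393 in kidney, 702 in muscle, 109 in heart and 1056 in cerebellum.

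**Figure D4:**
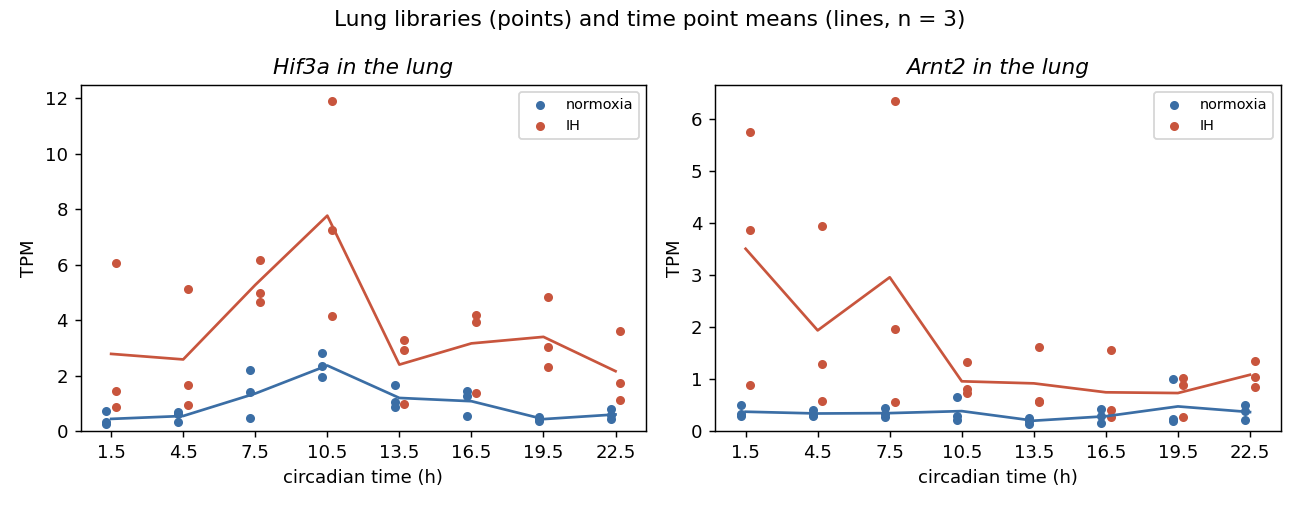
TPM of Hif3a and Arnt2 in the lung against circadian time in hours, with points for libraries and lines through the means of n = 3 in normoxia and after IH. Hif3a means are highest at 10:30 in both treatments (2.37 and 7.77 TPM), and Arnt2 after IH is highest in the first 3 time points with libraries that lie far apart.

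The genes that act on HIF or respond to it were counted by tissue in the same fits. Of 5 oxygen sensor genes (the prolyl hydroxylases Egln1, Egln2 and Egln3, the asparagine hydroxylase Hif1an, and Vhl), 1 rose and 3 fell in the lung, with a median of -0.12 beside -0.076 over all genes. Of all lung genes tested, 71.4% passed. Egln1 had -0.26 and Egln3 -0.25 there, but on TPM as deposited, and also with the term for genes detected, 3 sensors were higher and 0 lower. In the heart 2 of 5 rose, Hif1an by 0.35 and Egln3 by 0.16, beside 45.9% of all genes passing, and with the term for genes detected 0 of 5 passed. In the cerebellum 2 rose, Egln2 by 0.51 and Hif1an by 0.28, beside 16.7% of all genes passing. In the muscle Egln3 rose by 0.31 and Hif1an fell by 0.13, in the liver Vhl rose by 0.33, and in the kidney 0 of 5 passed. The shares of all genes passing in these tissues were 12.0%, 25.7% and 22.51%.

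Of 20 genes known as HIF targets, 5 rose and 13 fell in the lung, with a median of -0.27, beside 71.4% of all genes passing. Unscaled, 7 rose and 6 fell, and with the term for genes detected 7 rose and 2 fell, with a median of 0.12 that turns the direction. The glucose transporter gene Slc2a1 (-0.69, adjusted p = 1.77e-06) and the glycolytic enzyme gene Pgk1 (-0.66, adjusted p = 3.11e-09) fell the most, and both were also lower on TPM as deposited (-0.40 and -0.36). In the heart 8 of 20 rose and 3 fell, with a median of 0.17 beside 0.037 over all genes and with 45.9% of all genes passing. Unscaled, 14 rose and 1 fell, and with the term for genes detected 0 rose and 1 fell. The angiogenic factor gene Vegfa fell by 0.73 there (adjusted p = 1.15e-05).

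Of the targets elsewhere, 1 was higher and 4 lower of 17 tested in liver, and 3 and 3 of 18 in kidney. All genes passing there made up 25.7% and 22.51%. In muscle 1 was higher and 0 lower of 20, and in cerebellum 1 and 0 of 19, beside 12.0% and 16.7% of all genes. The glycolytic enzyme gene Eno1 was -0.59 in liver and 0.28 in kidney, and Ndrg1 was 0.58 in liver. The carbonic anhydrase gene Car9 was -0.39 in kidney, Vegfa was 0.23 in muscle and Ddit4, a stress-response inhibitor of mTOR signalling, was 0.48 in cerebellum. Of 7 other partners of the ARNT proteins, Ahr, the aryl hydrocarbon receptor, was the only one tested in lung and heart, where it was -0.20 and 0.28 and passed in both. In muscle Ahr was 0.17 and Sim2 -0.18, in cerebellum Ahr was -0.25, and in liver (1 tested) and kidney (3 tested) 0 passed.

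Genes with the pattern most like each subunit were found over the 96 means of tissue, treatment and time point, as a description in which the difference between tissues carries most of the correlation. The 3 closest were Adgre5, Ptprb and Samhd1 for Epas1 (r = 0.983, 0.979 and 0.979), and Cadm4, Aig1 and Cnksr3 for Hif1a (r = 0.938, 0.924 and 0.923). They were Dse, Mrtfb and Ric1 for Arnt (r = 0.947, 0.932 and 0.928), AI854703, Bcat1 and Dusp15 for Arnt2 (r = 0.976, 0.963 and 0.954), and Grk3, Gli1 and Gm10593 for Hif3a (r = 0.811, 0.810 and 0.807). The likeness of Hif3a to its closest gene was lower than that of the other 4. Among the subunits themselves, Hif1a and Arnt ran opposite over these means (r = -0.909), as did Arnt and Arnt2 (r = -0.798), while Epas1 and Arnt ran together (r = 0.714). These values depend on the scaling of libraries across tissues, and the opposition of Hif1a and Arnt is not seen in the deposited means. As deposited in normoxia, the lung was highest for Arnt (27.3 TPM) and below only the cerebellum for Hif1a (21.1 TPM).

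Within the tissue of its highest normoxia mean, each subunit was compared with all genes over 48 libraries, after the mean of each treatment and time point had been subtracted. The depth of these libraries is not known and their composition was not held equal. The part of either in these correlations was not tested. Epas1 in lung was closest to Eif4ebp2, Actn4 and App (r = 0.984, 0.983 and 0.982), Hif1a in cerebellum to Gnai1, Bag4 and Slitrk1 (r = 0.948, 0.945 and 0.942), Arnt in lung to Abl1, Coro2b and Ankrd52 (r = 0.896, 0.892 and 0.889), and Arnt2 in kidney to Pkhd1, Spg11 and Vps13b (r = 0.941, 0.939 and 0.930). Hif3a in cerebellum had the weakest likeness, to Tgfb3, Pskh1 and Sufu (r = 0.670, 0.670 and 0.662).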

How the data were processed

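RNA-seq of 6 tissues was analysed in 24 libraries per tissue and treatment, grouped by tissue, treatment and time point as the labels give them. The authors quantified reads with Kallisto against the Ensembl mouse transcriptome, and the deposited values are TPM per gene. Their estimated counts, DESeq2, MetaCycle and CircaCompare results are not analysed here. The 0 unmapped sample columns left nothing out.

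Values were computed with Python 3.11.15, pandas 2.3.3 and numpy 2.4.6, figures with matplotlib 3.10.9, and fits with limma 3.58.1 in R 4.3.3 with an intensity trend. Tests are 2-sided, with Benjamini-Hochberg adjustment over all genes of a tissue, or over all genes and all 15 pairs of tissues for levels. Genes needed a mean of at least 1 TPM over the libraries compared, or a maximum of at least 1 TPM for rhythm at a period of 24 hours. The labels number the libraries of a group as replicates without naming the mouse, so p-values measure the spread between these libraries. The fits were tested on simulated data with known changes.

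The members and all lists were chosen with earlier results of these data known. The genes named are the 5 subunits, in each tissue the 2 genes of each pathway list with the largest passing change, and the 3 genes most like each subunit. The result of 1 listed gene is not reported here. Genes that overlap a subunit on the same strand are also named. Gm42672 was chosen after its values were seen. Gene positions come from GENCODE mouse release M21. Alternatives were TPM as deposited, a pseudocount of 1, other filters, treatment alone, replicate block, a term for genes detected, linear TPM or time point as a factor for rhythm, and leaving out replicate numbers or libraries.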

Additional observations from a re-analysis of the deposited data

Results flagged for a closer look

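The response to IH differed between the 6 tissues by the interaction test of treatment and tissue for 3 of the 4 subunits tested, beside 84.4% of all genes. Epas1 had an adjusted p of 5.07e-08, with fitted log2 changes from -0.53 in lung to 0.37 in heart, which were 0.34 and -0.21 with the term for genes detected. Arnt2 had an adjusted p of 1.21e-06, with -0.24 in kidney, -0.27 in muscle and -0.02 in cerebellum, and 0.87 in lung without the filter on low values. With the term for genes detected, that lung value was 0.18 (adjusted p = 0.63), and the kidney fall did not pass on TPM as deposited. Hif1a had an adjusted p of 0.00566, with -0.34 in lung and 0.05 in heart, and its call depended on the scaling and on replicate numbers 1 and 2. Both of these Hif1a changes turned direction with the term for genes detected. No cause was tested.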

How the results depend on the processing

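The lung rise of Hif3a kept its direction and its call under every alternative in which it was tested. With a mean of at least 5 TPM it was filtered out. The count of lung subunits that passed was 4 and fell to 2 on TPM as deposited, with 2 to 4 when 1 replicate number was left out. Without replicate 3 it was 4 of 5 tested, because Arnt lost its call and Arnt2 was added. Arnt2 reached the filter there only through its IH libraries, so that count is not of the same genes. In the kidney the count of 2 became 0 on TPM as deposited and 1 with no filter, with the term for genes detected or without the library of lowest correlation, and 0 to 1 without 1 replicate number. In the heart 1 became 0 with the term for genes detected, with 1 to 2 without 1 replicate number. In the liver 0 became 1 with the term for genes detected, with 0 to 1 without 1 replicate number. Rhythm in normoxia went from 1 to 0 on TPM as deposited, with a pseudocount of 1, with time point as a factor and without any 1 replicate number. On linear TPM the count stayed at 1, but lung Hif3a was lost and cerebellar Hif3a passed. Rhythm after IH went from 1 to 2 on linear TPM and lay between 0 and 1 without 1 replicate number, with lung Hif3a in place of Arnt2 without replicate 2. With time point as a factor, and without the libraries that stand apart, 1 passed but it was not lung Arnt2 (cerebellar Epas1 and lung Hif3a). The cause was not tested.

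Same-numbered libraries did not deviate together in every pair (median r from -0.14 in lung to 0.22 in liver over 24 pairs each, lowest -0.55), so the numbers were not treated as pairs. In the fit with the replicate block, 2 subunits passed for rhythm in normoxia, the added one being liver Arnt (adjusted p = 0.0185), and no other subunit call changed. Over all genes the block moved the liver rhythm counts from 685 to 1133 in normoxia and from 873 to 1411 after IH. Own-numbered libraries were the best match for between 9 of 48 libraries in lung and 30 of 48 in liver.

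With the term for genes detected, the direction turned for lung Hif1a (0.23) and Epas1 (0.34), heart Hif1a (-0.039), Epas1 (-0.21) and Arnt (-0.22) and cerebellar Hif3a (-0.065). On TPM as deposited it turned for liver Arnt (-0.079) and muscle Hif1a (0.039). Without 1 replicate number it turned for kidney Arnt (range -0.17 to 0.082), muscle Epas1 (-0.062 to 0.12), and cerebellar Epas1 (-0.011 to 0.12), Hif3a (-0.064 to 0.050) and Arnt2 (-0.15 to 0.087). Without the library of lowest correlation, cerebellar Epas1 was -0.0032, Hif3a -0.019 and Arnt2 0.019, and Arnt2 was 0.12 without libraries that held markers of another tissue. Between tissues in normoxia, TPM as deposited turned Hif1a for lung minus liver (1.31), lung minus kidney (0.016), lung minus heart (0.83) and liver minus muscle (-0.11), Epas1 for muscle minus heart (0.32), and Arnt for lung minus muscle (0.57), liver minus kidney (-0.011) and liver minus heart (-0.035). Leaving out 1 replicate number turned Hif1a for lung minus liver (-0.28 to 0.050), Epas1 for muscle minus heart (-0.063 to 0.085) and Arnt for lung minus liver (-0.016 to 0.31).

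Of the single fitted changes after IH, 229 kept direction and call, 17 turned direction, 15 lost the call and 3 gained it. Leaving out libraries that stand apart or hold markers of another tissue, and lung Arnt2 without a filter, were chosen after seeing the data. TPM holds no depth, so what counting error limits is unknown, and low values of Hif3a and Arnt2 in several tissues were not tested.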
